A study of Sus scrofa with 45 samples.

Results

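The genes described here are 7 antioxidant genes of pig blood: the superoxide dismutases SOD1 and SOD2, catalase (CAT), the glutathione peroxidases GPX1 and GPX4, heme oxygenase 1 (HMOX1) and thioredoxin (TXN). Every non-control probe of the array whose gene name, RefSeq name or description named one of them was taken. That gave 17 probes, of which 3 were set aside (1 for CAT and 2 for TXN) because their descriptions named proteins of other kinds of organism. The remaining 14 of 43603 probes stand for 7 of the 1923 genes that could be named on the array.

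Superoxide dismutases turn superoxide into hydrogen peroxide, SOD1 mainly in the cytosol and SOD2 in mitochondria. Catalase and the glutathione peroxidases remove the peroxide, with GPX4 acting on lipid peroxides in membranes, and thioredoxin keeps protein thiols reduced. HMOX1 breaks down heme and is induced in macrophages that take up old red cells, while red cells themselves are rich in catalase and GPX1 and carry leftover transcripts into whole blood.

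One-colour arrays measured RNA from the blood of male miniature pigs in a study of diet-induced hyperlipidemia. Pigs received a control diet, a diet rich in fat and cholesterol (HFCD), or that diet with sucrose added (HFCSD). Whole blood was collected into PAXgene tubes after 10, 19 and 27 weeks of feeding, and white blood cells were caught on LeukoLock filters at 27 weeks, so pigs were older at the later times. The 45 arrays fell into 12 groups of 4, except for 3 arrays each in whole blood under HFCSD at 19 weeks, HFCD at 27 weeks and HFCSD at 27 weeks. Of the 43803 non-control spots of an array, between 15494 and 23344 were well above background (median 19242). The number of arrays limits the precision. Pigs were sampled repeatedly, so within a diet the arrays of different weeks and sample types in part share pigs. The labels do not tell which, so tests between weeks and between sample types treated dependent arrays as independent. Arrays of different groups were partly scanned on different days: all 10-week arrays on day 1, 3 of the 4 control arrays of 19 weeks on day 2, the other 19-week arrays on day 3, whole blood of 27 weeks on day 4 and white blood cells on day 5.

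Levels are log2 intensities after quantile normalization, given as mean (SD), and levels of different probes are not compared with each other. Where a gene had several probes, the one with the highest mean stood for it, here called the leading probe: A_72_P181041 for SOD1, A_72_P341278 for SOD2, A_72_P223317 for CAT, A_72_P088441 for GPX1, A_72_P388853 for GPX4, A_72_P078091 for HMOX1 and A_72_P177678 for TXN. Each leading probe was well above background on every array where it was usable. The CAT value of white blood cells under HFCD, replicate 1, was left out because the scanner software marked the spot as an outlier. So was 1 array's value for the SOD2 probe A_72_P023251. The second CAT probe, A_72_P424079, was well above background on 0 of 45 arrays and was not tested, and the second SOD1 probe, A_72_P367338, was well above background on 37 of 45. A probe counted as changed when its p in limma, adjusted over all probes tested in that comparison, was under 0.05.

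**Figure D1:**
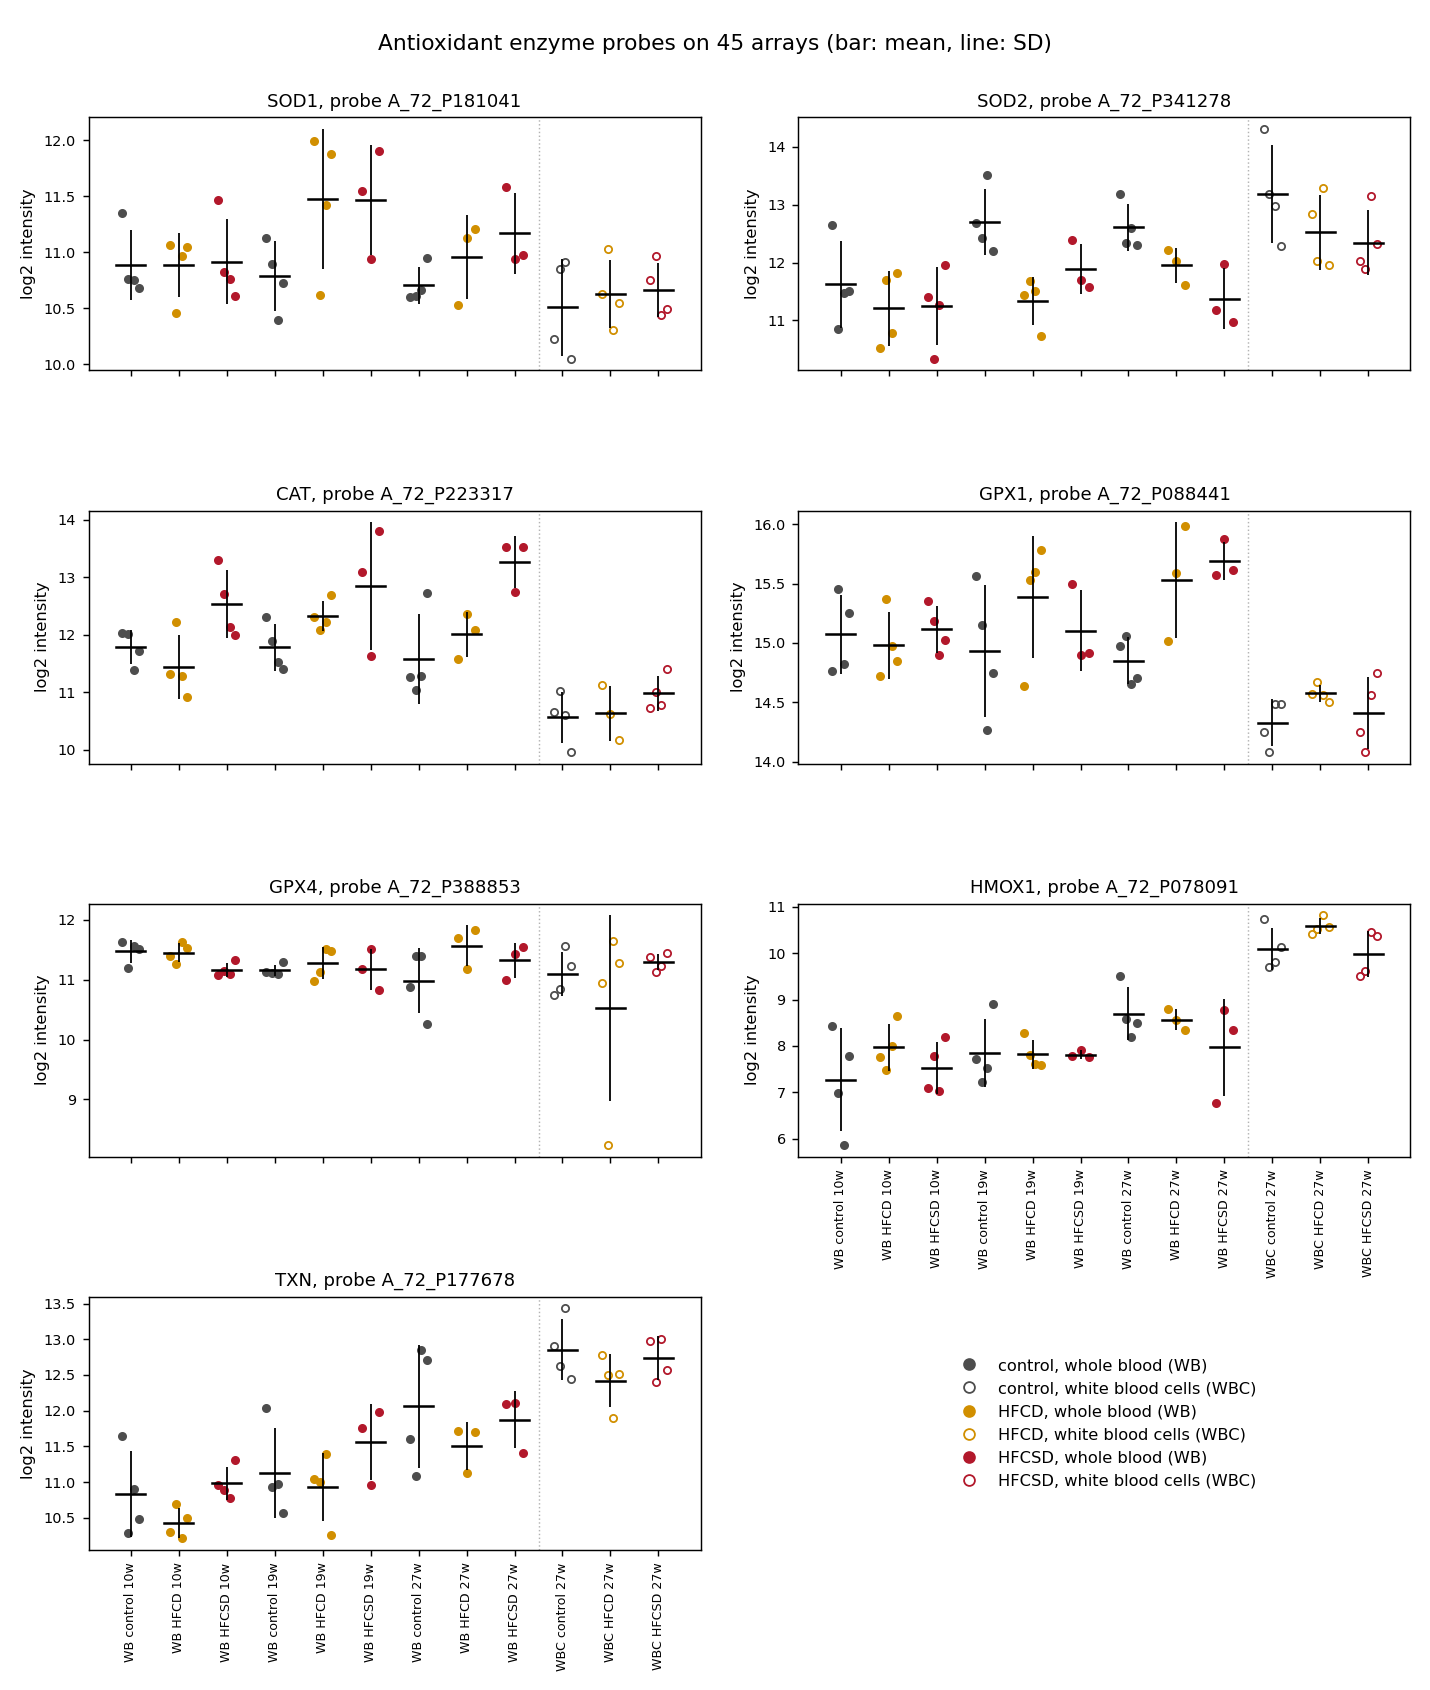
Log2 intensity of the leading probe of each of the 7 genes in the 12 groups: each point is an array, the bar is the group mean and the line spans 1 SD on either side, filled for whole blood and open for white blood cells. HMOX1 was highest in white blood cells in all 3 diets, and CAT and GPX1 were lowest there.

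SOD1, the cytosolic dismutase, had its highest group means in whole blood at 19 weeks, 11.48 (0.62) under HFCD and 11.47 (0.49) under HFCSD, against 10.79 (0.31) in the control. Its lowest were in white blood cells, 10.67 (0.24) under HFCSD, 10.63 (0.30) under HFCD and 10.51 (0.43) in the control. From high to low the other whole blood groups were HFCSD at 27 weeks, 11.17 (0.36), HFCD at 27 weeks, 10.96 (0.37), HFCSD at 10 weeks, 10.92 (0.38), control at 10 weeks, 10.89 (0.31), HFCD at 10 weeks, 10.89 (0.29), and control at 27 weeks, 10.71 (0.16). In this order all 11 pairs of neighbours lay within the larger of their SDs. SOD1 was the gene with no change in any comparison, with 0 of 41 tests over both probes. The second SOD1 probe, dim on some arrays, did not follow the leading one (r = -0.36 over 33 whole blood arrays, which share the pigs' groups and scan days).

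SOD2, the mitochondrial dismutase, ranged from 11.21 (0.65) under HFCD at 10 weeks to 13.19 (0.84) in control white blood cells. After the latter came whole blood of the control at 19 weeks, 12.70 (0.57), and at 27 weeks, 12.61 (0.41), then white blood cells under HFCD, 12.52 (0.64), and HFCSD, 12.35 (0.56). Next came HFCD at 27 weeks, 11.95 (0.30), HFCSD at 19 weeks, 11.89 (0.44), control at 10 weeks, 11.62 (0.75), HFCSD at 27 weeks, 11.38 (0.53), HFCD at 19 weeks, 11.34 (0.42), and HFCSD at 10 weeks, 11.24 (0.68). All 11 neighbouring pairs lay within the larger SD. The 3 SOD2 probes moved together over the whole blood arrays: r with the leading probe was 0.76 for A_72_P023251 (n = 32) and 0.89 for A_72_P041321 (n = 33), and both were 0.97 over 12 white blood cell arrays.

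CAT was highest in the 3 HFCSD groups of whole blood, 13.26 (0.45) at 27 weeks, 12.84 (1.12) at 19 weeks and 12.53 (0.60) at 10 weeks. HFCD at 19 weeks, 12.33 (0.26), and at 27 weeks, 12.01 (0.39), followed, and then the controls, 11.79 (0.30) at 10 weeks, 11.78 (0.41) at 19 weeks and 11.58 (0.78) at 27 weeks, and HFCD at 10 weeks, 11.43 (0.56). White blood cells were lowest, 10.98 (0.31) under HFCSD, 10.63 (0.48) under HFCD (n = 3) and 10.56 (0.44) in the control. Although the whole range of group means was 2.70, all 11 neighbouring pairs lay within the larger SD.

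GPX1, which reduces hydrogen peroxide with glutathione, had its highest means at 27 weeks under HFCSD, 15.69 (0.16), and HFCD, 15.53 (0.49), followed by HFCD at 19 weeks, 15.39 (0.51). The middle of the order was tight: HFCSD at 10 weeks, 15.12 (0.20), HFCSD at 19 weeks, 15.10 (0.34), control at 10 weeks, 15.07 (0.33), HFCD at 10 weeks, 14.98 (0.28), control at 19 weeks, 14.93 (0.56), and control at 27 weeks, 14.85 (0.20). The 3 white blood cell groups lay under all of whole blood, 14.58 (0.07) under HFCD, 14.41 (0.30) under HFCSD and 14.33 (0.20) in the control. Of 11 neighbouring pairs 10 lay within the larger SD, the exception being the step from the control at 27 weeks to white blood cells under HFCD.

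GPX4, the lipid peroxide reductase, was the flattest of the 7 in whole blood, from 11.56 (0.34) under HFCD at 27 weeks to 10.98 (0.54) in the control at 27 weeks. Between them in order were control at 10 weeks, 11.47 (0.19), HFCD at 10 weeks, 11.45 (0.16), HFCSD at 27 weeks, 11.32 (0.29), white blood cells under HFCSD, 11.29 (0.14), HFCD at 19 weeks, 11.27 (0.27), HFCSD at 19 weeks, 11.17 (0.34), HFCSD at 10 weeks, 11.16 (0.11), control at 19 weeks, 11.16 (0.10), and control white blood cells, 11.09 (0.37). White blood cells under HFCD were last, 10.52 (1.55), a spread that came from replicate 2 at 8.24 beside 10.94, 11.65 and 11.28 in the other replicates. The second GPX4 probe, A_72_P232212, did not show that low value (9.51 in replicate 2, with 9.46, 10.04 and 9.89 in the others), and over whole blood it moved with the leading one (r = 0.84, n = 33). Neighbouring pairs of the leading probe lay within the larger SD in 11 of 11 cases.

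HMOX1 had the widest range of group means of the 7 leading probes, 3.31. White blood cells were at 10.58 (0.17) under HFCD, 10.09 (0.46) in the control and 9.99 (0.50) under HFCSD. Whole blood followed with the control, 8.70 (0.57), and HFCD, 8.57 (0.23), at 27 weeks. The remaining groups were HFCD at 10 weeks, 7.97 (0.50), HFCSD at 27 weeks, 7.97 (1.05), control at 19 weeks, 7.84 (0.73), HFCD at 19 weeks, 7.82 (0.32), HFCSD at 19 weeks, 7.82 (0.09), HFCSD at 10 weeks, 7.53 (0.55), and control at 10 weeks, 7.27 (1.11). The 3 neighbouring pairs of 11 that stood apart by more than the larger SD were those after white blood cells under HFCD, after white blood cells under HFCSD, and after HFCD at 27 weeks.

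TXN was highest in white blood cells, 12.85 (0.43) in the control, 12.74 (0.30) under HFCSD and 12.42 (0.37) under HFCD. In whole blood its means at 27 weeks were 12.06 (0.86) in the control, 11.87 (0.40) under HFCSD and 11.51 (0.34) under HFCD at 27 weeks. At 19 weeks the means were 11.56 (0.53) under HFCSD, 11.13 (0.63) in the control and 10.93 (0.47) under HFCD, and at 10 weeks 10.98 (0.23), 10.83 (0.60) and 10.42 (0.21) for HFCSD, control and HFCD. All 11 neighbouring pairs lay within the larger SD. Over whole blood the probe A_72_P121041 moved with the leading TXN probe (r = 0.95, n = 33) and A_72_P189086, which is named through a bovine thioredoxin entry, less so (r = 0.47).

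The diets were compared first in whole blood at 27 weeks, where CAT was higher and SOD2 was lower under HFCSD than in the control. CAT levels were 13.52, 12.74 and 13.53 in the 3 HFCSD arrays and 11.26, 11.03, 11.28 and 12.73 in the 4 control arrays. All HFCSD values lay above all control values, with control replicate 4 almost level with the lowest of HFCSD. The difference was 1.69 on the log2 scale, 3.22-fold (95% confidence interval 1.72 to 6.01, limma adjusted p = 0.0314, higher in 3 of 3 arrays).

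SOD2 levels were 11.17, 11.98 and 10.98 under HFCSD and 13.19, 12.34, 12.60 and 12.31 in the control at 27 weeks, again without overlap. The ratio of HFCSD to control was 0.426 (95% confidence interval 0.265 to 0.684, limma adjusted p = 0.0349, lower in 3 of 3 arrays). The other SOD2 probes had log2 differences of -1.11 for A_72_P041321 (adjusted p = 0.0644) and -0.87 for A_72_P023251 (adjusted p = 0.170), both lower on average and neither past the threshold. These were the 2 changed probes among the 12 tested for these genes, while 10.6% of all probes tested changed. In the upward direction 1 probe changed, beside 6.78% of all probes, and in the downward direction 1, beside 3.87%.

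GPX1 also stood apart in this comparison without passing the threshold. Its levels were 15.57, 15.87 and 15.62 under HFCSD and 14.98, 15.06, 14.66 and 14.71 in the control, so that every HFCSD array lay above every control array. The log2 difference was 0.84, 1.79-fold (1.22 to 2.63, adjusted p = 0.0567, higher in 3 of 3 arrays), and it passed under 5 other ways of fitting or scaling. The adjusted p was 0.0251 when arrays were scaled to their 75th percentile (log2 difference 1.41), 0.0259 with normexp background correction, 0.0480 with slide as a random block, 0.0420 with only these groups in the fit and 0.0324 with all arrays in 1 fit. Over all 14 settings tried it lay between 0.0251 and 0.263, and with 1 array left out between 0.0735 and 0.155. The other leading probes had log2 differences of 0.46 for SOD1 (adjusted p = 0.215), 0.34 for GPX4 (0.455), -0.73 for HMOX1 (0.281) and -0.19 for TXN (0.770).

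The calls of CAT and SOD2 in this comparison each needed nearly every array. With 1 array left out, the CAT difference lay between 1.504 and 2.07 and passed only without control replicate 4 (2.07, adjusted p = 0.0106). Its adjusted p was 0.0903, 0.0756 and 0.0834 without control replicates 1, 2 and 3 and 0.110, 0.0659 and 0.0582 without HFCSD replicates 1, 2 and 3, where the differences were 1.58, 1.504, 1.59, 1.56, 1.95 and 1.55. SOD2 also passed only without control replicate 4 (-1.33, adjusted p = 0.0299). Its differences were -1.04, -1.32 and -1.24 without control replicates 1, 2 and 3 (adjusted p = 0.0950, 0.0660 and 0.0833) and -1.13, -1.53 and -1.03 without HFCSD replicates 1, 2 and 3 (0.121, 0.0572 and 0.0686). The count of changed probes in limma was thus 0 in each of these 6 fits, and 3 without control replicate 4. The share of all probes called in those fits is not given here, so the counts do not set these genes apart from the array.

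The 3 HFCSD arrays also had fewer bright spots: 39.6%, 38.8% and 39.7% of spots were well above background, against 50.2%, 49.4%, 46.5% and 38.9% in the control arrays at 27 weeks. With that share as a covariate the CAT difference was 0.73 (adjusted p = 0.328) and the SOD2 difference -0.96 (adjusted p = 0.284). Without the filter on dim probes the adjusted p was 0.0788 for CAT and 0.0772 for SOD2, and SOD2 did not pass with slide as a fixed block (-1.02, adjusted p = 0.0900) or with all arrays in 1 fit (0.0592). By the adjusted t statistic neither passed (0.123 for CAT and 0.114 for SOD2). Over all 14 settings the adjusted p lay between 0.0110 and 0.328 for CAT and between 0.0267 and 0.284 for SOD2. On the slide with 2 HFCSD arrays and 1 control array the differences were 2.24 for CAT, -1.52 for SOD2 and 0.94 for GPX1, and on the slide with 1 array of each group they were 1.70, -0.37 and 0.81. The median difference over all probes tested was -0.21. What part the share of bright spots had in these differences was not tested beyond that fit.

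Under HFCD, which shares the control arrays, 0 of 13 probes of these genes changed at 27 weeks in limma, beside 0.0165% of all probes. At an unadjusted p under 0.05 there was 1 in limma (of all 18188 probes, 1009) and 1 by the methods' t statistic (1010). The leading SOD2 probe was at 12.21, 12.03 and 11.62 under HFCD, all under the lowest control value. Its log2 difference was -0.65 (adjusted p = 0.908, lower in 3 of 3 arrays). By the other SOD2 probes HFCD and control overlapped. CAT differed by 0.43 (adjusted p = 0.998) and GPX1 by 0.68 (adjusted p = 0.893). With 1 array left out the GPX1 difference lay between 0.45 and 0.94. Between HFCSD and HFCD at 27 weeks 0 of 13 changed in limma, beside 0.0111%, with 1 at an unadjusted p under 0.05 (of all 18005 probes, 2259) and 1 by the t statistic (1400). That probe was CAT, 1.26 higher on the log2 scale under HFCSD (2.39-fold, adjusted p = 0.393, higher in 3 of 3 arrays), and 0.31 with the share of bright spots as a covariate (0.946).

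At 10 weeks 0 of 13 probes changed in limma under HFCD (0.0281% of all probes), 0 of 13 under HFCSD (0.0123%) and 0 of 13 between the diets (0%). At an unadjusted p under 0.05 there were 1, 1 and 2 in limma, beside 1776 of 17767, 280 of 16198 and 886 of 17917 over all probes. By the methods' t statistic there were 1, 2 and 5, beside 1594, 293 and 854. CAT was at 13.30, 12.72, 12.13 and 11.99 under HFCSD and 12.03, 12.01, 11.39 and 11.72 in the control. HFCSD lay higher on average, with 3 of 4 values above every control value (log2 difference 0.75, 1.68-fold, adjusted p = 1.00). That difference lay between 0.49 and 0.93 with 1 array left out and was as low as 0.57 in the other settings. Between HFCSD and HFCD the log2 difference was 1.103 for CAT and 0.56 for TXN (both adjusted p = 0.809), and all 4 HFCSD arrays lay above all HFCD arrays for TXN.

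At 19 weeks 0 of 13 probes changed in limma under HFCD (0.0181% of all probes), 0 of 13 under HFCSD (0.0175%) and 0 of 12 between the diets (0%). Unadjusted, there were 2, 2 and 0 in limma, beside 2072 of 16615, 2041 of 17178 and 253 of 16277 over all probes, and 2, 1 and 0 by the t statistic, beside 1834, 2772 and 386. SOD2 was at 11.45, 11.68, 11.50 and 10.73 under HFCD, 12.39, 11.70 and 11.58 under HFCSD, and 12.68, 12.43, 13.51 and 12.20 in the control. By this leading probe every HFCD array lay under every control array, and 2 of 3 HFCSD arrays did. Its log2 differences were -1.36 under HFCD (ratio 0.388, adjusted p = 0.168) and -0.82 under HFCSD (adjusted p = 0.411). Against the 1 control array scanned on the day of the diet arrays they were -1.34 and -0.79. By the other SOD2 probes the groups overlapped. A_72_P023251 had means of 8.15, 8.39 and 8.66 under HFCD, HFCSD and in the control, and A_72_P041321 6.47, 6.69 and 7.84.

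No test passed for SOD1 or CAT at 19 weeks. SOD1 levels were 11.99, 10.62, 11.42 and 11.88 under HFCD and 11.55, 10.94 and 11.91 under HFCSD, beside 11.13, 10.90, 10.39 and 10.73 in the control. The groups overlapped, with log2 differences of 0.69 (adjusted p = 0.426, above every control array in 3 of 4) and 0.68 (adjusted p = 0.470, 2 of 3). The log2 difference of CAT was 1.06 under HFCSD (2.09-fold, adjusted p = 0.386, 2 of 3 arrays above every control array) and 0.55 under HFCD (adjusted p = 0.638, 1 of 4 arrays). With 1 array left out the HFCSD difference of CAT lay between 0.58 and 1.68, and it was 0.21 with slide as a fixed block and 0.53 with scan day as a block. Scan day cannot be told apart from diet for 3 of the 4 control arrays, and against the lone control array of the diet arrays' day SOD1 differed by 0.34 under HFCD and 0.33 under HFCSD, and CAT by 0.01 and 0.53.

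In white blood cells the diets left 0 of 13 probes changed in limma in each comparison: HFCD against control (0.0276% of all probes), HFCSD against control (0.0366%) and HFCSD against HFCD (0%). Unadjusted counts were 1, 1 and 0 in limma, beside 857 of 18126, 2158 of 19105 and 407 of 18799 over all probes, and 1, 0 and 0 by the t statistic, beside 889, 1978 and 439. Under HFCSD the log2 differences in these cells were -0.84 for SOD2 (adjusted p = 0.501), 0.42 for CAT (0.606) and 0.08 for GPX1 (0.899). The change of CAT under HFCSD in white blood cells minus that in whole blood was -1.27 (95% confidence interval -2.33 to -0.20, adjusted p = 0.185), so a difference between the sample types was not shown. That difference passed without whole blood control replicate 4 (-1.65, adjusted p = 0.0342). Over the 12 settings tried it lay between -1.58 and -0.76 and passed in 0, with a limma adjusted p of up to 0.646. For GPX1 it was -0.76 (adjusted p = 0.177) and passed with normexp background correction (-0.89, 0.0337), which moved the median of all probes by -0.15, and it was -1.42 with the 75th percentile, not past the threshold. The values were for HMOX1 0.63 (0.536) and for SOD2 0.39 (0.732).

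Over these differences of changes limma called 0 of 13 probes for HFCSD in white blood cells against whole blood, beside 1.38% of all probes, with 2 at an unadjusted p under 0.05 (3922 of 20379 over all probes). For HFCD it called 0 of 13 (0% of all probes), with 0 unadjusted (267 of 20072). Between 27 and 10 weeks in whole blood it called 0 of 13 for the change under HFCSD (0%), with 2 unadjusted (2664 of 17898), and 0 of 13 for that under HFCD (0%), with 0 unadjusted (521 of 19141). The HFCSD change at 27 weeks minus that at 10 weeks was 0.94 for CAT (adjusted p = 0.414), -0.86 for SOD2 (0.434), 0.79 for GPX1 (0.335) and 0.65 for GPX4 (0.330). Over the settings it lay between 0.55 and 1.45 for GPX1 and between 0.28 and 0.92 for GPX4. The t statistic was not run on these differences.

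The paper takes the white blood cell to whole blood ratio as an indicator of what white blood cells contribute to whole blood RNA. Here the ratio compares normalized levels of the sample types at 27 weeks and does not measure an amount of RNA carried. HMOX1 and 1 of the SOD2 probes were higher in white blood cells, and CAT and GPX1 were lower, in all 3 diets. A probe described by a bovine thioredoxin entry was also higher in all 3, the leading TXN probe passed under HFCD, and 1 of the GPX4 probes was higher in the control. Of 13 probes 6 changed in the control, beside 45.3% of all probes (4 higher, 24.4%, and 2 lower, 20.9%). Under HFCD 6 of 13 changed, beside 47.5% (4 higher, 25.5%, and 2 lower, 22%), and under HFCSD 5 of 13, beside 58.8% (3 higher, 37.1%, and 2 lower, 21.6%). In the control and under HFCD these counts were near the share of the whole array, and under HFCSD the count was under it. With the 75th percentile or normexp 6 probes were higher and 2 lower under HFCSD, so that last reading depends on the scaling. Over all probes 7686 were then higher and 4157 lower with the 75th percentile, and 6834 and 4199 with normexp. The difference from the share was not tested. Sample type, extraction kit and scan day cannot be told apart in these ratios.

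**Figure D2:**
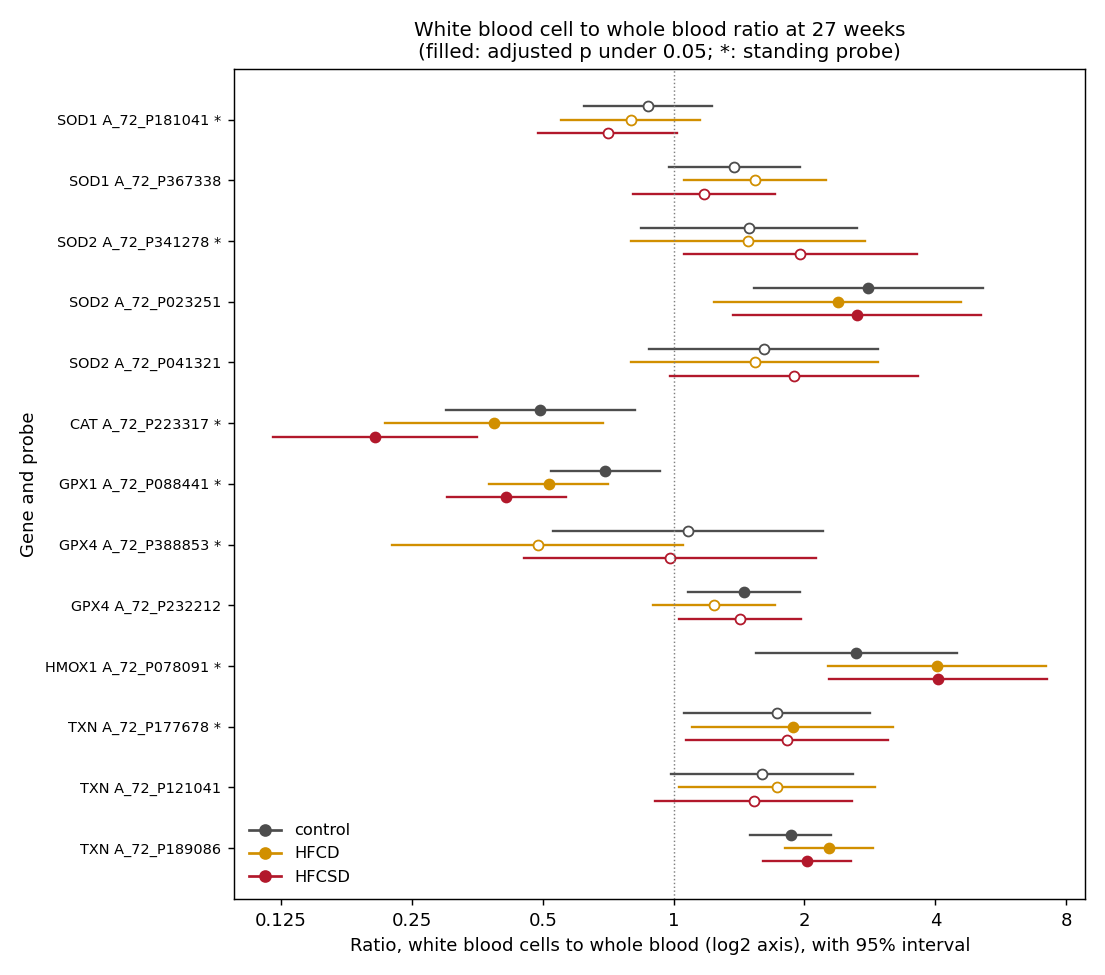
White blood cell to whole blood ratio at 27 weeks on a log2 axis for the 13 tested probes in the 3 diets, with 95% confidence intervals; filled points had a limma adjusted p under 0.05 and a star marks the leading probe of a gene. HMOX1 lay above 1 and CAT and GPX1 lay under 1 in every diet.

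HMOX1 was at 10.73, 9.71, 9.80 and 10.13 in control white blood cells and at 9.51, 8.58, 8.19 and 8.503 in control whole blood. Under HFCD it was at 10.42, 10.51, 10.82 and 10.57 in white blood cells and at 8.80, 8.55 and 8.34 in whole blood. Under HFCSD it was at 9.51, 9.61, 10.46 and 10.37 in white blood cells and at 6.78, 8.78 and 8.35 in whole blood. In each diet every white blood cell value lay above every whole blood value. The ratio was 2.63 in the control (95% confidence interval 1.54 to 4.48, adjusted p = 0.00455), 4.04 under HFCD (2.27 to 7.18, 0.000462) and 4.06 under HFCSD (2.28 to 7.22, 0.000305), with 4 of 4 arrays higher in each. It passed in all 3 diets with any 1 array left out, though without whole blood replicate 1 of HFCSD, the array at 6.78, the log2 ratio under HFCSD went from 2.02 to 1.43.

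CAT was at 10.65, 11.02, 10.60 and 9.96 in control white blood cells, at 11.12, 10.61 and 10.17 under HFCD, where 1 of 4 spots was left out, and at 10.73, 11.003, 10.78 and 11.40 under HFCSD. In whole blood it was at 11.58, 12.36 and 12.08 under HFCD, and the values of the control and HFCSD stand above. All white blood cell values lay under all whole blood values in each diet. The ratio was 0.494 in the control (0.2998 to 0.814, adjusted p = 0.0219, lower in 4 of 4), 0.386 under HFCD (0.217 to 0.688, 0.00867, lower in 3 of 3) and 0.205 under HFCSD (0.120 to 0.353, 5.99e-05, lower in 4 of 4). The control call was lost without whole blood control replicate 4 (log2 difference -0.63, adjusted p = 0.0964) and without white blood cell control replicate 4 (-0.82, 0.0729), with only these groups in the fit (0.0638) and by the adjusted t statistic (0.127), which also took the HFCD call (0.0501). With the share of bright spots as a covariate the HFCSD log2 ratio of CAT was -1.67 in place of -2.28 and still passed.

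GPX1 was also lower in white blood cells in every diet. It was at 14.25, 14.08, 14.49 and 14.49 in control white blood cells, 14.57, 14.68, 14.56 and 14.50 under HFCD, and 14.25, 14.08, 14.56 and 14.75 under HFCSD. Whole blood under HFCD was at 15.02, 15.58 and 15.99. Every white blood cell value lay under every whole blood value of its diet. The ratio was 0.697 in the control (0.521 to 0.931, adjusted p = 0.0403), 0.517 under HFCD (0.377 to 0.708, 0.00156) and 0.413 under HFCSD (0.301 to 0.565, 7.78e-05), lower in 4 of 4 arrays in each. The control call was lost without whole blood control replicate 1 (-0.48, adjusted p = 0.0916) or 2 (-0.45, 0.105) and without white blood cell control replicate 1 (-0.50, 0.0765) or 2 (-0.44, 0.119). It was also lost without the filter on dim probes (0.0573), with a weaker flag for presence (0.0552), with the share of bright spots as a covariate (0.0534), with only these groups in the fit (0.0693) and with all arrays in 1 fit (0.0769). Under HFCSD the log2 ratio of GPX1 was -1.90 with the 75th percentile, in place of -1.28, and still passed.

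Scaling arrays to their 75th percentile, without quantile normalization, moved the median log2 ratio of all probes by 0.13 in the control and 0.19 under HFCD, and normexp moved it by -0.19 under HFCSD. No changed probe of these genes turned its direction with either, and with the 75th percentile 6 probes were higher in each diet and 0, 1 and 2 were lower in control, HFCD and HFCSD. Over all probes those called higher went from 4642, 4955 and 7310 to 5840, 6697 and 7686, and those called lower from 3981, 4273 and 4259 to 3779, 4132 and 4157. With the 75th percentile the log2 ratio of CAT was -0.73 in the control (adjusted p = 0.0979) and -0.97 under HFCD (0.0555), and that of GPX1 in the control was -0.48 (0.116). Relative to the median of all probes under quantile normalization, which was 0.17, 0.19 and 0.42 in the control, HFCD and HFCSD, the log2 ratio of CAT was -1.19, -1.56 and -2.70. For GPX1 the relative values were -0.69, -1.14 and -1.70, and for HMOX1 they were 1.23, 1.82 and 1.60.

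All TXN probes had white blood cell to whole blood ratios above 1 in every diet, but only A_72_P189086 passed the threshold in each. Its description names a partial match to bovine thioredoxin and no pig TXN transcript, and its target in the pig was not checked. That probe was at 7.91, 8.11, 8.14 and 8.18 in control white blood cells and at 6.94, 7.06, 7.34 and 7.42 in control whole blood, without overlap, and the groups of the other diets did not overlap either. Its ratio was 1.86 in the control (adjusted p = 8.06e-05), 2.28 under HFCD (1.32e-05) and 2.03 under HFCSD (3.68e-05), higher in 4 of 4 arrays each, and it passed with any 1 array left out. The leading TXN probe had near ratios that sat at the threshold: 1.73 in the control (adjusted p = 0.0661, above every whole blood array in 2 of 4), 1.88 under HFCD (0.0482, 4 of 4) and 1.82 under HFCSD (0.05002, 4 of 4). The ratios of A_72_P121041 were 1.59, 1.73 and 1.53, none past the threshold.

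Single arrays decided the call of the leading TXN probe. In the control it passed without whole blood replicate 3 (1.05 on the log2 scale, adjusted p = 0.0187) or 4 (1.00, 0.0310) or white blood cell replicate 4 (0.92, 0.0491), and with the 75th percentile (1.04, 0.0207). Without whole blood replicate 2 its log2 difference fell to 0.46 (adjusted p = 0.260). Under HFCD it did not pass without whole blood replicate 1 (1.01, 0.0596), 2 (0.72, 0.193) or 3 (1.00, 0.0692) or white blood cell replicate 1 (0.79, 0.116), 2 (0.89, 0.0823) or 4 (0.88, 0.0819). Nor did it pass there with slide as a random block (0.0594), without the filter on dim probes (0.0896), with a weaker flag for presence (0.0583), with the share of bright spots as a covariate (0.0570) or by the adjusted t statistic (0.0544). Under HFCSD it passed without white blood cell replicate 2 (0.98, 0.0452), with the 75th percentile (0.0313), with normexp (0.0262), with the deposited series table (0.0477), with only probes well above background on every array (0.0495), with only these groups in the fit (0.0240), with all arrays in 1 fit (0.0415) and by the adjusted t statistic (0.0450). Without whole blood replicate 3 the HFCSD log2 difference fell to 0.64 (0.197).

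SOD2 was higher in white blood cells by its probe A_72_P023251, with ratios of 2.81 in the control (adjusted p = 0.00715), 2.38 under HFCD (0.0288) and 2.64 under HFCSD (0.0129), higher in 4 of 4 arrays each. Its levels were 11.26, 10.05, 10.20 and 9.38 in control white blood cells and 9.05, 8.85, 9.12 and 7.91 in control whole blood. The ratio of the leading SOD2 probe was 1.49 (0.842 to 2.64, adjusted p = 0.243), 1.48 (0.7999 to 2.75, 0.279) and 1.96 (1.05 to 3.64, 0.0576), and that of A_72_P041321 1.61, 1.54 and 1.89, none past the threshold. The direction was thus upward in all 3 probes, and the size differed between them.

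For A_72_P023251 the HFCD call was lost without whole blood replicate 2 (1.31 on the log2 scale, adjusted p = 0.0612) or 3 (1.06, 0.110) or white blood cell replicate 1 (1.12, 0.0732) or 3 (1.08, 0.0793). The HFCSD call of that SOD2 probe was lost without whole blood replicate 1 (1.27, 0.0538) or 3 (1.05, 0.0798). By the adjusted t statistic A_72_P023251 passed in no diet (0.0579, 0.0574 and 0.0752 in control, HFCD and HFCSD), and it did not pass under HFCD without the filter on dim probes (0.0579). The leading SOD2 probe passed under HFCSD without whole blood replicate 2 (1.27, 0.0316) or white blood cell replicate 2 (1.12, 0.0458), with the 75th percentile (0.0179) and with normexp (0.0473). With the share of bright spots as a covariate, the HFCSD log2 ratio of A_72_P023251 was 0.74 (adjusted p = 0.365), and that of the leading SOD2 probe 0.57 (0.485).

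SOD1 and GPX4 gave no ratio of the leading probe past the threshold. Ratios of the leading SOD1 probe were 0.873 (0.621 to 1.23), 0.797 (0.551 to 1.15) and 0.705 (0.487 to 1.02) in control, HFCD and HFCSD. Their limma adjusted p was 0.519, 0.297 and 0.0950. The second SOD1 probe, A_72_P367338, dim on some arrays, lay the other way, at 1.38, 1.54 and 1.18. None of these passed the threshold (limma adjusted p = 0.121, 0.0544 and 0.450). The leading GPX4 probe was at 1.08, 0.486 and 0.979, the value under HFCD resting on the low array named above. The GPX4 probe A_72_P232212 was higher in control white blood cells, where it was at 9.44, 9.501, 9.91 and 9.65 beside 8.93, 9.57, 9.26 and 8.59 in whole blood. The groups overlapped, and 2 of 4 white blood cell values lay above all of whole blood. Its ratio was 1.45 (1.08 to 1.96, adjusted p = 0.0385) in the control, 1.24 under HFCD (0.264) and 1.42 under HFCSD (0.0569). The control call of that GPX4 probe was lost without whole blood replicate 1 (0.49, 0.0921) or 4 (0.37, 0.153) and without white blood cell replicate 2 (0.58, 0.0506), 3 (0.45, 0.120) or 4 (0.53, 0.0654). It was also lost without the filter on dim probes (0.0560), with a weaker flag for presence (0.0525), with the share of bright spots as a covariate (0.0533), with only these groups in the fit (0.117) and by the adjusted t statistic (0.124).

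Between 10 and 27 weeks in whole blood of control pigs, TXN rose by its leading probe and A_72_P121041, HMOX1 rose and 1 of the GPX4 probes fell. The TXN probe A_72_P189086 was at 6.98 (0.23) at 10 weeks and 7.19 (0.23) at 27 weeks and was not called. Of 12 probes 4 changed, beside 20.7% of all probes (3 higher, 12.2%, and 1 lower, 8.52%). With the 75th percentile 5 were higher and 0 lower, while over all probes 2390 in place of 2085 were higher and 1492 in place of 1461 lower. Age and scan day cannot be told apart from the feeding period here. Under HFCD limma called 0 of 13, beside 5.60% of all probes, with 2 unadjusted in limma (3859 of 18862 over all probes) and 2 by the t statistic (4190). Under HFCSD limma called 0 of 13, beside 10.3%, with 2 unadjusted in limma (4409 of 16461) and 5 by the t statistic (4803).

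TXN by its leading probe was at 11.60, 11.08, 12.86 and 12.71 in the control at 27 weeks and at 11.65, 10.28, 10.90 and 10.48 at 10 weeks. Replicates 3 and 4 of 27 weeks lay above all of 10 weeks, and the groups overlapped through replicate 1 of 10 weeks. The ratio was 2.35 (log2 difference 1.23, 0.50 to 1.97, adjusted p = 0.0162, 2 of 4 arrays beyond every 10-week array). TXN probe A_72_P121041 gave 2.88-fold (adjusted p = 0.00280, 3 of 4 arrays), from 11.38, 10.02, 10.71 and 10.05 to 11.82, 10.85, 12.90 and 12.69, and it passed with any 1 array left out but not by the adjusted t statistic (0.130). The leading probe did not pass without 10-week replicate 2 (1.05, adjusted p = 0.0662) or 4 (1.12, 0.0547) or 27-week replicate 3 (0.97, 0.0725) or 4 (1.02, 0.0661), with only these groups in the fit (0.0728) or by the adjusted t statistic (0.164). Under HFCD and HFCSD the log2 differences of TXN were 1.09 (adjusted p = 0.0994) and 0.89 (0.139), with 3 of 3 arrays above every 10-week array in each. Both passed with only these groups in the fit (0.0333 and 0.0439). They differed from the control by -0.15 (0.977) and -0.35 (0.732).

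HMOX1 was at 9.51, 8.58, 8.19 and 8.503 in the control at 27 weeks and at 8.43, 6.99, 5.86 and 7.79 at 10 weeks. The 27-week values were higher in 3 of 4 arrays than every 10-week value, and the 10-week values were widely spread. The ratio was 2.69 (log2 difference 1.43, 0.50 to 2.35, adjusted p = 0.0254). The HMOX1 call was lost without 10-week replicate 2 (1.33, adjusted p = 0.0692) or 3 (0.96, 0.127), without 27-week replicate 1 (1.15, 0.103), with the share of bright spots as a covariate (1.01, 0.106), without the filter on dim probes (0.0549), with only these groups in the fit (0.0735) and by the adjusted t statistic (0.171). The change under HFCD minus that in the control was -0.83 (0.955), and for HFCSD it was -0.99 (0.441).

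GPX4 probe A_72_P232212 fell in the control, from 9.90, 9.55, 9.81 and 9.71 at 10 weeks to 8.93, 9.57, 9.26 and 8.59 at 27 weeks. The values of 3 of 4 arrays lay under every 10-week value, and the ratio was 0.635 (adjusted p = 0.0307). The leading GPX4 probe had a log2 difference of -0.49 (adjusted p = 0.0957) and passed without 27-week replicate 2 (-0.63, 0.0482) and with the share of bright spots as a covariate (-0.64, 0.0390). Without 27-week replicate 4 it was -0.25 (0.380). The call of A_72_P232212 was lost without 10-week replicate 1 (-0.60, 0.0641), 3 (-0.63, 0.0693) or 4 (-0.67, 0.0574) and without 27-week replicate 1 (-0.61, 0.0846) or 4 (-0.49, 0.123), with the 75th percentile (-0.51, 0.0947), with slide as a random block (-0.61, 0.0542), without the filter on dim probes (0.0561) with only these groups in the fit (0.0790) and by the adjusted t statistic (0.110). The leading SOD2 probe had a log2 difference of 0.99 (adjusted p = 0.0641). It passed without 10-week replicate 1 (1.33, 0.0146) and with the 75th percentile (1.12, 0.0377). Without 10-week replicate 2 the difference was 0.73 (0.225). The SOD2 probe A_72_P023251 was level, at 8.75 (0.88) at 10 weeks and 8.73 (0.56) at 27 weeks. A_72_P041321 was at 6.87 (0.84) and 8.16 (0.61), and neither was called. The count of changed probes was 2 without any 1 of 10-week replicates 2, 3 and 4 and 27-week replicates 1 and 4. The share of all probes called in those fits is not given here.

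The other genes of these pathways were read from lists of which only a part was on the array: 2 of 3 genes of superoxide dismutation, 8 of 17 of the peroxiredoxin and thioredoxin system, 13 of 29 of glutathione and other peroxidases, 10 of 17 of heme and iron handling, 5 of 14 of the NRF2 pathway, 13 of 18 oxidant producing enzymes and 7 of 21 of selenoproteins. In whole blood at 27 weeks under HFCSD, 0 of 6 tested genes of the peroxiredoxin and thioredoxin list changed (median log2 difference -0.25), 1 of 7 of the glutathione list (GSTO1, 1.44, adjusted p = 0.0310; median -0.26), 0 of 5 for heme and iron handling (0.18), 0 of 3 for the NRF2 pathway (0.29) and 0 of 1 for superoxide dismutation (0.84). Of 10 oxidant producing genes 2 were higher and 1 lower (median -0.48), ROMO1 by 4.57 (adjusted p = 0.00607) and MAOA by -1.01 (0.0478) among those well above background on nearly every array, and XDH, well above on 24 of 45 arrays, among the higher ones. Of 7 selenoprotein genes 2 were lower (median -0.38), SELENOP by -1.04 (0.0499) and SEPHS2, which makes the selenium donor that GPX1 and GPX4 need, by -0.75 (0.0394). Of all probes 6.78% were higher and 3.87% lower, and their median was -0.21. For the list genes here and the cell markers below, calls with 1 array left out or in other settings are not given. In this comparison the calls of CAT and SOD2 were lost in most such fits with 1 array left out.

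In white blood cells against whole blood, CCS, the copper chaperone of SOD1, was the 1 tested gene of the superoxide list and was higher in all 3 diets (log2 ratios 1.78, 1.65 and 0.93 in control, HFCD and HFCSD). Of 6 peroxiredoxin and thioredoxin genes 3, 2 and 2 were higher and 0 lower, with PRDX5 at 0.71, 0.63 and 0.66. For heme and iron handling 1 of 6, 1 of 6 and 1 of 8 were higher and 3, 3 and 2 lower: HMOX2, the constitutive relative of HMOX1, at 2.14, 1.56 and 1.46, and FTL, a ferritin chain, at -2.02, -1.83 and -1.23. Of 8 glutathione genes 0, 1 and 3 were higher and 0, 0 and 1 lower. Of 3 NRF2 genes 1, 1 and 0 were higher and 0 lower, of 9, 10 and 11 oxidant producing genes 3, 0 and 5 were higher and 0, 1 and 2 lower, and of 7 selenoprotein genes 0, 1 and 2 were higher and 1, 1 and 0 lower. Of all probes 24.4%, 25.5% and 37.1% were higher and 20.9%, 22% and 21.6% lower.

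Between 10 and 27 weeks in the control, CCS fell (-1.77, the 1 tested gene of its list). Of 6 peroxiredoxin and thioredoxin genes 0 were higher and 1 lower, of 7 glutathione genes 1 and 1, of 6 heme and iron genes 1 and 1, of 3 NRF2 genes 0 and 1, of 9 oxidant producing genes 1 and 0, and of 7 selenoprotein genes 2 and 0, beside 12.2% of all probes higher and 8.52% lower.

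Some markers of red cell precursors moved with CAT and GPX1, and others did not. Of the 13 erythroid genes on the array, 11 were well above background on some array, and TFRC was not. Bright probes weigh most in the list's sum, among them those of HBE1, a globin, and TMOD1, while HBA, an adult globin, and BCL2L1 were each well above background on 1 array only. In whole blood at 27 weeks under HFCSD 3 of 8 tested erythroid genes were higher and 0 lower (median 1.16), beside 6.78% and 3.87% of all probes, among them KLF1 by 1.91 (adjusted p = 0.0336) and BPGM by 1.52 (0.0312), while RHCE differed by 2.34 (0.0517). In white blood cells against whole blood 3 of 8, 3 of 7 and 3 of 8 were lower in control, HFCD and HFCSD and 0 higher, beside 20.9%, 22% and 21.6% of all probes lower, with RHCE at -5.03, -4.77 and -4.61 and KLF1 at -1.33, -1.50 and -2.79. The control means of BPGM, ANK1 and TMOD1 were 5.39, 8.17 and 13.10 in whole blood and 6.65, 8.83 and 13.66 in white blood cells, none of them called. Under HFCSD BPGM and ANK1 lay the other way, at 6.91 and 8.97 in whole blood and 5.72 and 8.42 in white blood cells. TMOD1 was at 12.53 and 13.17 there. Under HFCD BPGM, ANK1 and TMOD1 were at 5.31, 7.92 and 12.24 in whole blood. In white blood cells of that diet they were at 5.88, 7.80 and 12.62.

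The summed erythroid level in whole blood at 27 weeks was 14.01, 14.58, 14.74 and 15.51 in the control, 14.16, 15.07 and 14.63 under HFCD and 15.78, 15.33 and 15.32 under HFCSD. Control replicate 4, the control array with the highest CAT level, also had the highest erythroid sum of its group. At 19 weeks the sums were 15.20, 15.12, 14.42 and 14.46 in the control, 13.28, 15.15, 15.24 and 15.23 under HFCD and 15.41, 13.70 and 15.74 under HFCSD. At 10 weeks they were 15.26, 15.40, 14.62 and 15.12 in the control, 13.65, 15.05, 14.27 and 13.47 under HFCD and 15.44, 15.13, 14.44 and 14.66 under HFCSD. The 12 arrays of white blood cells had sums of 10.73, 15.63, 15.56 and 16.002 in the control, 14.98, 10.32, 13.81 and 15.49 under HFCD and 15.35, 14.90, 13.04 and 13.23 under HFCSD. The sums of white blood cells reached those of whole blood in many arrays, and the lowest came from control replicate 1 and HFCD replicate 2. In white blood cells both TMOD1, 13.66 (2.90), 12.62 (2.95) and 13.17 (1.56) in control, HFCD and HFCSD, and HBE1, 12.59 (3.00), 11.92 (2.64) and 12.50 (1.20), were widely spread.

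Over the 33 whole blood arrays CAT moved with the summed erythroid level (r = 0.71, rho = 0.77, r = 0.78 without the 2 arrays farthest from the median, r = 0.76 within groups), and so did GPX1 (r = 0.53, rho = 0.51, 0.48 and 0.59). The arrays share pigs' diets, weeks, slides and scan days. Over the white blood cell arrays r was -0.43 for CAT (n = 11) and -0.30 for GPX1 (n = 12), and 0.65 for GPX4 (n = 12). With the summed T cell level r was 0.80 for CAT and 0.76 for SOD1 over those arrays. The r of GPX4 with the erythroid sum includes HFCD replicate 2, low in both (sum 10.32), and r without that array is not given. The part of the erythroid markers in the CAT and GPX1 differences was not tested. In these mixed samples fewer cells of a type and less RNA per cell cannot be told apart.

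**Figure D3:**
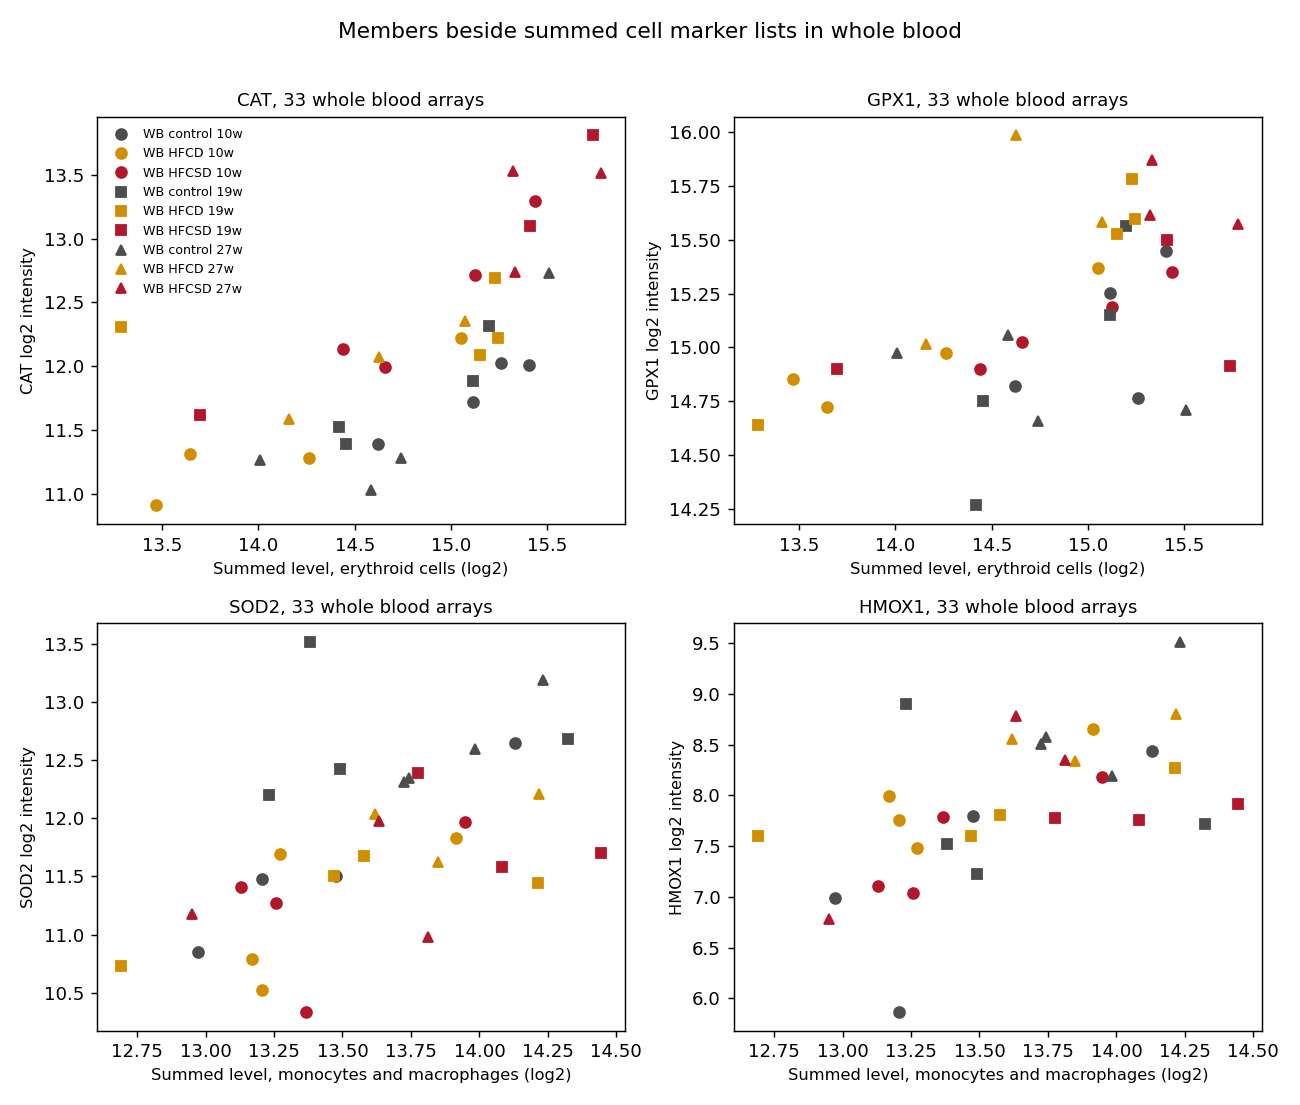
Log2 intensity of CAT and GPX1 against the summed level of the erythroid list, and of SOD2 and HMOX1 against that of the monocyte and macrophage list, in the 33 whole blood arrays, each point an array. CAT rose most closely with its list (r = 0.71), and r was 0.53 for GPX1, 0.52 for SOD2 and 0.57 for HMOX1.

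SOD2 and HMOX1 were set beside markers of monocytes and macrophages. Of 11 such genes on the array 10 were well above background on some array, the bright LYZ probe weighs much in the sum, and VCAN was well above background on none. In white blood cells against whole blood 3 of 10, 3 of 10 and 4 of 10 were higher in control, HFCD and HFCSD and 0 lower, beside 24.4%, 25.5% and 37.1% of all probes higher. They were MRC1, FCGR1A and SPI1 in each diet and CD36 under HFCSD. MRC1, well above background on only 15 of 45 arrays, entered this comparison through its white blood cell arrays alone, as did FCGR1A in the control and under HFCSD and SPI1 in the control. Such probes could hardly be called lower, so the counts of this list say little about direction, and in the control they rest on such probes only. In whole blood at 27 weeks under HFCSD 0 of 8 were higher and 1 lower, beside 6.78% and 3.87% of all probes. It was CD36, a scavenger receptor also found on platelets, by -1.57 (adjusted p = 0.0343; median of the list -0.07). The summed level in whole blood at 27 weeks was 14.23, 13.74, 13.98 and 13.72 in the control, 14.22, 13.62 and 13.85 under HFCD and 12.95, 13.63 and 13.81 under HFCSD. The 12 arrays of white blood cells had sums of 15.98, 14.63, 14.50 and 13.89 in the control, 14.95, 14.67, 14.74 and 13.88 under HFCD and 13.47, 14.12, 15.04 and 14.51 under HFCSD.

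The monocyte sum was highest in control white blood cells, replicate 1, which also held the highest SOD2 and the highest HMOX1 value of its group. At 10 weeks the sums were 14.13, 12.97, 13.21 and 13.48 in the control, 13.21, 13.27, 13.17 and 13.91 under HFCD and 13.13, 13.37, 13.26 and 13.95 under HFCSD. At 19 weeks they were 14.32, 13.49, 13.38 and 13.23 in the control, 14.22, 13.58, 13.47 and 12.69 under HFCD and 13.78, 14.45 and 14.08 under HFCSD. Over whole blood r with this sum was 0.52 for SOD2 (rho = 0.60, 0.52 without the 2 farthest arrays, 0.49 within groups), 0.57 for HMOX1 (0.59, 0.62 and 0.55) and 0.51 for TXN (0.59, 0.53 and 0.41). Over the 12 white blood cell arrays it was 0.85 for SOD2 and 0.58 for HMOX1, and r of HMOX1 with the summed neutrophil level was 0.80. In control whole blood the monocyte sum had a mean of 13.45 (0.50) at 10 weeks and 13.92 (0.24) at 27 weeks. The erythroid sum there was 15.10 (0.34) and 14.71 (0.62). The part of these markers in the differences of SOD2 and HMOX1, between weeks as well, was not tested.

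Among markers of other cell types, in whole blood at 27 weeks under HFCSD 0 of 8 platelet genes (median log2 difference -0.82), 0 of 7 neutrophil genes (-0.30), 0 of 7 T cell genes (-0.01) and 0 of 1 B cell genes changed in limma, and 1 of 3 liver genes was higher, APOC3 by 1.96 (adjusted p = 0.0264), beside 6.78% of all probes higher and 3.87% lower. In white blood cells against whole blood 0 of 8 platelet genes changed in any diet, of 7 neutrophil genes 0, 2 and 2 were higher and 1, 1 and 1 lower, and of 8 T cell genes 7, 4 and 6 were higher in control, HFCD and HFCSD. The 1 tested B cell gene did not change, and of 5, 4 and 4 liver genes 1, 0 and 0 were higher and 0, 1 and 2 lower. Of all probes 24.4%, 25.5% and 37.1% were higher and 20.9%, 22% and 21.6% lower. Over whole blood CAT had r = 0.63 with the summed neutrophil level, which at 27 weeks was 16.12, 15.78, 15.87 and 15.98 in the control, 15.99, 16.46 and 16.17 under HFCD and 16.26, 16.28 and 16.13 under HFCSD, with all HFCSD sums above all control sums. With that sum GPX1 had r = 0.57 and TXN r = 0.50. GPX1 had r = -0.49 with the summed T cell level, 12.76, 12.79, 13.05 and 12.77 in the control, 12.94, 12.31 and 12.96 under HFCD and 12.36, 12.56 and 12.91 under HFCSD, where the diets overlapped. The part of these markers in the differences of these genes was not tested. GPX4 had r = 0.66 with the platelet sum over white blood cells, and HFCD replicate 2, the array with the low GPX4 value, had the lowest platelet sum (10.61, beside 15.38, 14.30 and 15.79 in its group).

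Among themselves the 7 genes varied in part together over the 33 whole blood arrays. CAT went with SOD1 (r = 0.60) and with GPX1 (r = 0.48), and SOD2 went with TXN (r = 0.48) and HMOX1 (r = 0.39). Within groups CAT ran opposite to GPX4 (r = -0.63). The other pairs of leading probes lay between -0.38, for CAT and GPX4, and 0.35, for CAT and TXN.

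The named genes most like each leading probe over whole blood, among 1364 probes well above background on all 33 arrays, included these. Among those closest to CAT were SEC62 (r = 0.90) and CYB5A (0.90). SOD2 was closest to ACSL4 (0.92), FGL2 (0.91) and IL18 (0.90). GPX1 was closest to SMTN (0.83) and UCP2 (0.81). The 3 genes nearest to GPX4 were RPL18 (0.82), RACK1 (0.78) and RPL10 (0.77), of which RPL18 and RPL10 encode ribosomal proteins. SOD1 was nearest to COX6B (0.79), UBE2D3 (0.70) and ATP5J2 (0.69), of which COX6B and ATP5J2 encode parts of the respiratory chain and ATP synthase. HMOX1 was nearest to BTG3 (0.74), FN1 (0.72) and S100A6 (0.71), and TXN to RPS6 (0.77), MGST1 (0.75) and SLIRP (0.72).

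Over the 12 white blood cell arrays, among 1664 probes, SOD2 was closest to ABHD5 (r = 0.97), CCR1 (0.96) and VNN1 (0.95), and HMOX1 to AIF1 (0.90), FCGR3A (0.90) and EMP1 (0.88). GPX4 was closest to FAU (0.98), AIMP1 (0.96) and ACTB (0.94). These r values of GPX4 include HFCD replicate 2, the array with its low value, and r without that array is not given. The nearest to SOD1 was CRYZL1 (0.88), to CAT RPL7 (0.88, n = 11), to GPX1 GNAI2 (0.82) and to TXN RPL6 (0.73).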

How the data were processed

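The authors scanned 45 one-colour arrays and made the deposited intensity values with Feature Extraction, version 9.5.3.1 per the labels and 10.5.1.1 per the file headers. The processed signal of 43803 non-control spots was taken as log2, quantile normalized over all arrays, and averaged over the spots of a probe. Between 1 and 31 spots per array marked as non-uniform or as population outliers were left out, and dim spots hold a surrogate noise estimate. The lowest correlation of an array with the log2 of the deposited series table was 0.9997. Probes entered a comparison when well above background on every usable array of at least 1 group, with at least 2 usable arrays in each. limma 3.58.1 in R 4.3.3 gave moderated two-sided tests for 22 comparisons, with Benjamini-Hochberg adjustment over all probes tested and a threshold of 0.05. Tables were built in Python 3.11.15 with pandas 2.3.3, with help from scipy 1.17.1 and numpy 2.4.6, and plots were drawn by matplotlib 3.10.9. The fit was also run on simulated data with known changes and independent noise. That run had no shared pigs, slides or scan days, so it cannot speak to their effect.

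All 14 probes of the 7 genes were reported. From each of 14 other lists at most 4 genes per comparison were to be named, those past the threshold with the largest change first, and fewer were named here, chosen after their values were seen. The likest genes were the 3 with the highest r, and a few genes of these and the other lists are not reported here. Members and lists were chosen with earlier results of these data known. Gene names came from the files and from RefSeq tables of pig genes. Alternatives were 75th percentile scaling, the deposited series table, normexp (offset 50), other filters on dim probes, slide, scan day, replicate number or share of bright spots in the model, fewer or more arrays in the fit, the methods' t statistic, other probes, ratios of linear means, and each array left out in turn. No sequence was used here.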

Additional observations from a re-analysis of the deposited data

Results flagged for a closer look

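In 4 of 62 groups of 4 arrays, 1 value of a leading probe lay far from the other 3, and chance flags about 1 in 20 groups. SOD1 in whole blood of the control at 10 weeks was 11.348 in replicate 1, with the others between 10.68 and 10.76. SOD1 in whole blood under HFCD at 10 weeks was 10.4606 in replicate 2, with the others between 10.97 and 11.07. CAT in whole blood of the control at 27 weeks was 12.7276 in replicate 4, with the others between 11.03 and 11.28. GPX4 in whole blood of the control at 19 weeks was 11.2986 in replicate 4, with the others between 11.095 and 11.13.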

How the results depend on the processing

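Of 297 counts of changed probes per comparison and setting 32 moved by over 1.5 times, and 6 of 22 comparisons had every count within that factor. The cause was not tested.

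By the unadjusted t statistic the counts were 1 under HFCD, 2 under HFCSD and 5 between the diets in whole blood at 10 weeks, 2 under HFCD and 1 under HFCSD at 19 weeks, 1 under HFCD, 4 under HFCSD and 1 between the diets at 27 weeks, 1 under HFCD in white blood cells, 8 for white blood cells against whole blood under HFCSD, and 2 under HFCD and 5 under HFCSD for 27 against 10 weeks. Over all probes tested those counts were, in that order, 1594, 293, 854, 1834, 2772, 1010, 4706, 1400, 889, 11672, 4190 and 4803. For the probes of these genes the adjusted t statistic gave 0 under HFCSD at 27 weeks in whole blood. It gave 3 and 3 for white blood cells against whole blood in the control and under HFCD. For 27 against 10 weeks it gave 0 in the control and 1 under HFCSD. Counts over all probes by the adjusted t statistic are not given here, so these do not set the genes apart from the array.

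At 27 weeks in whole blood under HFCSD the count was 0 without a filter on dim probes, 0 with the share of bright spots as a covariate, and 1 with slide as a fixed block, an alternative chosen after seeing the data. Without the filter it was 2 in the control and 1 under HFCSD for 27 against 10 weeks. With only the 2 groups compared in the fit it was 3 for white blood cells against whole blood in the control and 1, 2 and 2 for 27 against 10 weeks in control, HFCD and HFCSD. With the 75th percentile it was 8 for white blood cells against whole blood under HFCSD, beside 7686 higher and 4157 lower over all probes. For 27 against 10 weeks under HFCSD it was 1 with that scaling, beside 631 higher and 799 lower. With normexp it was 8 for that HFCSD ratio, beside 6834 higher and 4199 lower over all probes. For the HFCSD change in white blood cells minus that in whole blood it was 1 with normexp, beside 159 higher and 680 lower. With all 45 arrays in 1 fit it was 1 for 27 against 10 weeks under HFCD. For the other settings of this paragraph counts over all probes are not given here, so those counts do not set the genes apart from the array.

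Leaving out 1 array at a time gave counts between 0 and 3 under HFCSD at 27 weeks in whole blood, between 4 and 8, 4 and 6, and 4 and 7 for white blood cells against whole blood in control, HFCD and HFCSD, between 2 and 6 for 27 against 10 weeks in the control, and between 0 and 1 for the HFCSD change in white blood cells minus that in whole blood. It was 0 throughout in the other 16 comparisons. Counts over all probes in these fits are not given here, so the ranges do not set the genes apart from the array.

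With the replicate number as a block the count for white blood cells against whole blood was 5, 6 and 8 in control, HFCD and HFCSD. The share of all probes called with that block is not given here. Among the calls that changed, GPX1 in the control (adjusted p = 0.0508) and the leading TXN probe under HFCD (0.0593) did not pass with the block, and the leading SOD2 probe passed under HFCSD (0.0273). Arrays with 1 replicate number in both groups paired by r over 0.1 in every pair in 1 of 18 comparisons, that of 27 against 10 weeks under HFCSD (r from 0.19 to 0.50), where the block left the count at 0. Over all 63 pairs r went from -0.64 to 0.73 (12095 probes, 20 best with their own number). Whether a number means a pig is not known, and the numbers were not taken as pairs.

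Among the single results, 470 kept their direction and side of the threshold under other settings, 52 no longer passed, 29 newly passed and 4 untested values moved. With 1 array left out these were 284, 47, 9 and 1, and with another probe of the gene 12, 4, 4 and 4. Ratios of linear means gave 21 of 21 within the spread. A value whose sign turned was counted as reversed only where it passed in the alternative, and none was. Dim probes limit what can be said of SOD1 by its second probe and of CAT by its second probe.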
